A study of Mus musculus with 77 samples.

Results

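The 12 liver samples described here came from mice given the lowest doses of 2 phthalates, and they were set as 1 pool against 10 untreated samples of the phthalate arm. The pool holds 4 samples of di-n-octyl phthalate (DNOP) at 1250 ppm, 4 of n-butyl benzyl phthalate (BBP) at 1500 ppm and 4 of BBP at 3000 ppm. Together with the controls these are 22 of the 77 samples of the series. All were livers of male B6C3F1 mice, an F1 hybrid strain used in rodent carcinogenicity testing, exposed for 7 days, and 1 bead array was read per sample. The controls are labelled 0 ppm. The labels write the doses as 1.25K, 1.5K and 3K, and the route of exposure is not given in the sources used here. The rest of the series covers higher doses of both compounds, di(2-ethylhexyl) phthalate (DEHP), and phenobarbital with controls of its own.

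The 3 dose groups were pooled because few or no genes passed a test when each was compared with the controls alone, so they were chosen by their measured gene expression against these controls. Counts of genes in that same contrast therefore describe the pool and are not an independent test of it. Differences among the 3 groups, and differences from other doses, were not themselves used in the choice. Yet groups chosen as close to the same controls may also be close to each other and farther from other doses. Those contrasts are therefore not fully independent of the choice. Each of the 12 exposed samples carries its own number in the labels. The 10 controls carry 4 numbers among them, and what such a number stands for is not given. The 3 controls numbered 32 had been found high for target genes of PPARA, so every comparison was repeated without them. Leaving them out raises those genes in the pool by construction, and genes gained that way are no separate support.

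PPARA is a nuclear receptor of the hepatocyte that binds fatty acids and their derivatives, and phthalate monoesters can activate it in rodents. With its partner RXR it turns on genes for fatty acid transport, omega-hydroxylation, peroxisomal and mitochondrial oxidation and ketone body formation. Fasting uses the same receptor, so its targets also move with the nutritional state of an animal.

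Detection and correlation were alike across the 22 samples, while signal and array weights varied. Between 41.9% and 46.6% of genes were detected per array (median 44.2%), and arrays of 1 group correlated at 0.953 or more in log2 signal. No pair of arrays was identical. Mean signal before normalization ran from 209 to 471, and control replicate 2, numbered 32, had both the lowest signal and the lowest detection. Array weights, used only as an alternative setting, ran from 0.25 to 2.21 in these samples. They were 0.78, 0.48 and 0.44 for the controls numbered 32. Hepatocyte markers such as albumin averaged 12.19 on the log2 normalized intensity scale in the exposed samples and 12.26 in the 7 controls of other numbers. Lymphocyte markers averaged 4.61 and 4.67, close to background. Values below are on this log2 scale, and a change is limma's estimate of the pooled mean of the 3 dose groups minus the control mean. Controls that share a label number were modelled as correlated, so an estimate can differ slightly from the difference of plain means. A single correlation served for all genes, 0.099, or 0.088 without the controls numbered 32. For genes whose controls agree more closely within a number, the p-values can be too small. In whole liver, fewer cells of a type and less RNA per cell cannot be told apart. Whether samples of 1 group came from separate cages or extractions is not given, and p-values measure only the spread between samples within groups. Unless a fit of only these samples is named, that spread was estimated over all groups of the series. It then includes the higher doses, DEHP and the phenobarbital arm.

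Pooling narrowed the error of a gene's change but not to the level of small changes. The median standard error (SE) was 0.109 for the pool and 0.148 for a dose of 4 samples, which is 1.36 times as large. For a gene with the median SE, an unadjusted p of 0.05 was reached at a 1.16-fold difference. The first gene to pass an adjusted p of 0.05 among the 11324 tested would have needed a 1.46-fold difference in the pool and a 1.68-fold difference in a lone dose group. Errors were wider for strongly varying PPARA targets, with an SE of 0.59 for Cyp4a14, an omega-hydroxylase. Only 45 of 11324 genes differed from the controls by more than the 1.46-fold mark in the pool.

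Against all 10 controls the pool had no gene past the test. In limma with Benjamini-Hochberg adjustment 0 of 11324 genes were called, a share of 0% in either direction, while 453 genes (4%) had an unadjusted p under 0.05. The same test on the 3 doses apart also called 0 genes each, and 454 (4.01%), 402 (3.55%) and 436 genes (3.85%) had an unadjusted p under 0.05 for DNOP 1250 ppm, BBP 1500 ppm and BBP 3000 ppm. These 3 comparisons share their controls with each other and with the pool. Across the other processing settings, and with each of the 22 samples left out in turn, the pooled count stayed between 0 and 4, apart from settings that changed the set of controls. The 4 came with control 1, numbered 32, left out, and DNOP replicate 1 left out gave 3.

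The genes nearest to the threshold were few and of several kinds, with Cyp4a12b and Acaa1b among them from the list of PPARA targets described below. Cyp4a12b, an omega-hydroxylase with male-biased expression in mouse liver, was 1.10 higher in the pool (SE 0.23, limma adjusted p = 0.0794). Its level was 9.62, 9.09, 10.44 and 10.08 with DNOP, 9.05, 9.19, 8.84 and 9.58 with BBP 1500 ppm, and 9.78, 10.41, 9.83 and 9.48 with BBP 3000 ppm. The controls numbered 32 read 9.96, 8.35 and 8.27, and the others ran from 7.35 through a median of 8.32 to 9.07. All 12 exposed samples lay above the median of the controls, yet only 3 of 12 lay above the highest control, so the groups overlapped. Its probe may also read the near-identical Cyp4a12a, whose own probe was 0.18 higher.

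H1f10, a linker histone, was 0.41 lower (SE 0.09, limma adjusted p = 0.0794), but it was detected on only 1 of the 12 exposed arrays and 5 of the 10 control arrays, so its values are near background. Styx, a pseudophosphatase, was 0.57 higher (limma adjusted p = 0.195), and 12 of 12 exposed samples lay above the control median. Stard4, a carrier of sterols, was 0.71 higher, and Gsk3a, a protein kinase, was 0.58 lower, each with a limma adjusted p of 0.307. The peroxisomal thiolase Acaa1b, described below, was higher with the same adjusted p, and the export pump Abcc3 was also among the nearest rises. Gnai2, a G protein subunit, was 0.67 lower, and Asgr2, a subunit of the hepatocyte asialoglycoprotein receptor, was 0.76 lower. F5, coagulation factor V, was 0.50 higher and Dusp10, a MAP kinase phosphatase, was 0.42 lower. None of these passed the test in the comparison with all controls.

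**Figure D1:**
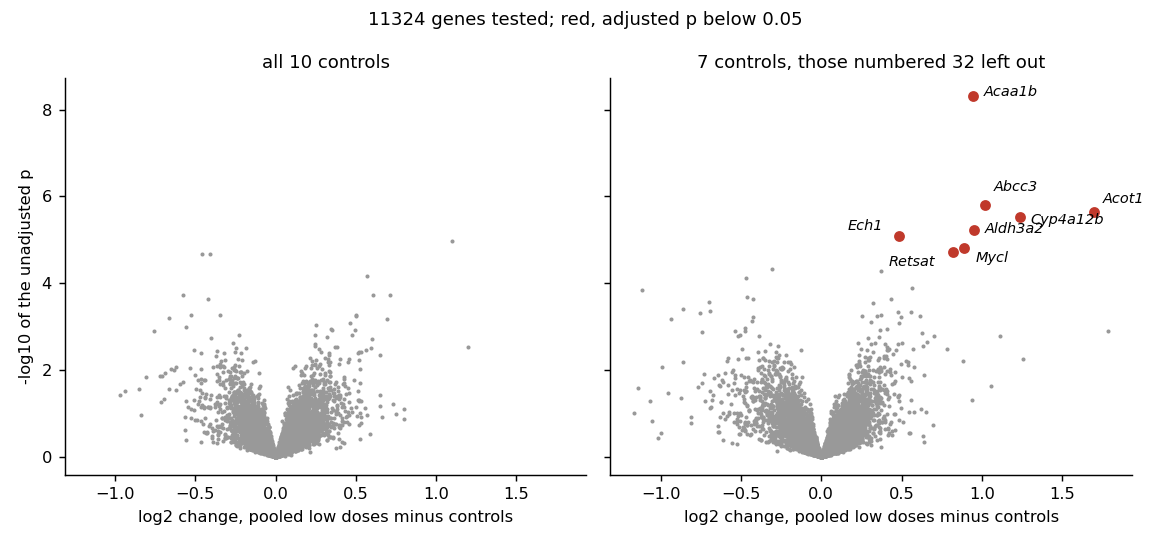
Each point is 1 of 11324 genes, with its log2 change in the pool of 12 on the horizontal axis and -log10 of its unadjusted p on the vertical axis. With all 10 controls no point passes an adjusted p of 0.05, and with 7 controls the 8 red points do, all to the right of 0.

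Without the controls numbered 32, 8 genes were higher in the pool and 0 were lower, which is 0.0706% of the genes tested. At an unadjusted p under 0.05 there were 565 genes (4.99%). The 8 genes were Acaa1b, Ech1, Abcc3, Aldh3a2, Acot1, Retsat, Cyp4a12b and Mycl, and 5 of them are on the list of PPARA targets. With any 1 of the 19 remaining samples left out the count was 5 to 10, and 5 came without control 7, numbered 63, or without replicate 1 of BBP 3000 ppm. It was 1, Acaa1b, with a mean per label number (limma adjusted p = 0.00232). The others of the 8 then had limma adjusted p from 0.107 for Cyp4a12b to 0.223 for Retsat. The count was 0 with median-centred arrays. It was 2, Acaa1b and Aldh3a2, with only these samples in the fit, both without and with the labels' REP number, a replicate number that recurs across groups, as a block. Acaa1b, Abcc3 and Acot1 were called in 19 of the 19 fits with 1 sample left out, Mycl in 11 and Retsat in 10. Some alternative settings also called falls. Tceal9 was called at -0.38 with the deposited matrix (limma adjusted p = 0.0375). H1f10 was called at -0.31 with a variance trend (limma adjusted p = 0.0329). The controls numbered 32 are also the only phthalate controls of REP number 1. Leaving them out sets exposed samples of that REP number against no control of it. Among the controls, label number 32 and REP number 1 cannot be told apart.

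The smallest p came from peroxisomal oxidation. Acaa1b, the peroxisomal thiolase of the last step of beta-oxidation, rose by 0.95 (SE 0.14, 95% interval 0.67 to 1.22, limma adjusted p = 5.64e-05). Its levels were 13.19, 13.58, 13.53 and 13.45 with DNOP, 13.77, 13.36, 13.36 and 13.64 with BBP 1500 ppm, and 13.58, 13.90, 13.56 and 13.43 with BBP 3000 ppm. The 7 controls of other numbers ran from 12.17 through a median of 12.48 to 13.16. All 12 exposed samples therefore lay above all 7 of these controls, which carry only the label numbers 45, 63 and 75. The controls numbered 32 read 13.81, 13.49 and 13.98, inside or above the exposed range. With all 10 controls the change was 0.60 (limma adjusted p = 0.307).

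Ech1, a dienoyl-CoA isomerase of peroxisomes and mitochondria, rose by 0.48 (SE 0.10, limma adjusted p = 0.0154). It read 12.42, 12.16, 12.58 and 12.25 with DNOP, 12.54, 12.45, 12.38 and 12.43 with BBP 1500 ppm, and 12.68, 12.24, 12.34 and 12.39 with BBP 3000 ppm. The 7 other controls ran from 11.63 through 11.95 to 12.12, and those numbered 32 read 12.54, 12.38 and 12.55. Again every exposed sample was above every control of another number. Acaa1b and Ech1 were the 2 of 11324 genes (0.0177%) with that separation upward, and 0 genes had it downward. Against all 10 controls 0 genes had it in either direction.

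Acot1, a cytosolic acyl-CoA thioesterase, showed the largest change of the 8, a rise of 1.70 (SE 0.32, limma adjusted p = 0.00853). Its levels were 9.77, 9.18, 9.55 and 8.39 with DNOP, 9.63, 8.29, 7.16 and 8.15 with BBP 1500 ppm, and 9.49, 9.41, 8.62 and 7.36 with BBP 3000 ppm. The other controls ran from 6.09 through 7.09 to 7.89 and those numbered 32 read 10.28, 9.99 and 10.93. Thus 10 of 12 exposed samples exceeded the 7 controls, 2 BBP samples fell among them, and all 12 were below the controls numbered 32. With all controls the change was 0.73, with a 95% interval from -0.04 to 1.50. Acot1 is close in sequence to Acot2, whose own probe was detected on 2 of the 12 exposed arrays, and probes for this family may share signal.

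Abcc3, a basolateral export pump for conjugated bile acids and drugs, rose by 1.02 (SE 0.19, limma adjusted p = 0.00853). It read 9.23, 8.03, 9.56 and 9.20 with DNOP, 9.50, 9.24, 8.83 and 9.35 with BBP 1500 ppm, and 9.75, 9.43, 8.32 and 8.67 with BBP 3000 ppm. The other controls ran from 7.66 through 7.82 to 8.62, and those numbered 32 read 9.57, 9.39 and 8.62. Only the lowest DNOP sample and 1 BBP sample reached down into the range of the 7 controls. Aldh3a2, which oxidizes fatty aldehydes, rose by 0.95 (SE 0.19, limma adjusted p = 0.0131). Its exposed samples ran from 10.46 to 11.52 and its other controls from 9.79 to 10.52, so 1 sample overlapped. The controls numbered 32 read 11.45, 11.05 and 11.55 for it.

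The last 3 genes have different roles. Retsat, which saturates retinol, rose by 0.82 (SE 0.18, limma adjusted p = 0.027), with 11 of 12 exposed samples above the 7 controls. Cyp4a12b rose by 1.24 (SE 0.24, limma adjusted p = 0.00853), close to its 1.10 with all controls. None of the other 7 genes moved less with the choice of controls. Mycl, a MYC-family transcription factor, rose by 0.89 (SE 0.19, limma adjusted p = 0.0248). Its controls numbered 32 read 6.80, 7.17 and 6.54, all above the highest of the other controls at 6.07.

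**Figure D2:**
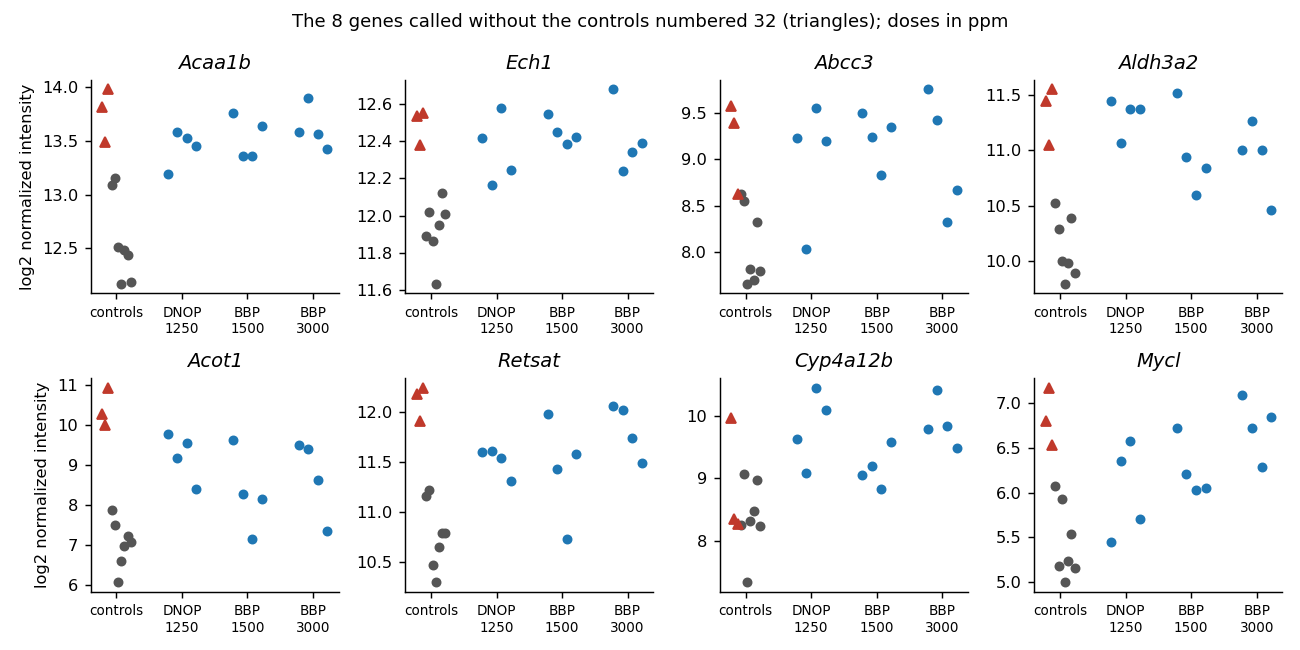
Each panel shows 1 gene in all 22 samples, as log2 normalized intensity on the vertical axis, with controls in grey, controls numbered 32 as red triangles and exposed samples in blue. For Acaa1b and Ech1 all blue points lie above all grey points, and for 6 of the 8 genes all red triangles lie above the highest grey point, with Abcc3 and Cyp4a12b as the exceptions.

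The list of PPARA targets, described by counts and a median, moved with the choice of controls. Of its 80 genes, 77 were on the array and 64 passed the filter on dim genes, and the filter used all arrays of the series, higher doses included. With all controls the median change was 0.05, with 41 of 64 above 0, and 7 genes higher and 1 lower at an unadjusted p under 0.05. Without the controls numbered 32 the median was 0.23, with 60 of 64 above 0, and 23 higher and 0 lower at that p. Dropping the controls numbered 63 in place of those numbered 32 turned the first median to -0.02, so its sign depends on the controls. Over all tested genes the median was 0.00 either way, and 5732 and 5880 of 11324 genes were above 0. An unadjusted p under 0.05 was reached, in either direction, by 453 (4%) and 565 (4.99%) of them. The mean level of the 64 genes was 9.40 to 9.63 in the controls numbered 32, 8.37 to 8.83 in the other 7 and 8.55 to 9.33 in the exposed samples. Controls of 1 number were close, at 8.83 and 8.70 (45), 8.39 and 8.37 (63), and 8.80, 8.73 and 8.68 (75). The exposed samples thus lay between both sets of controls and overlapped the lower set.

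**Figure D3:**
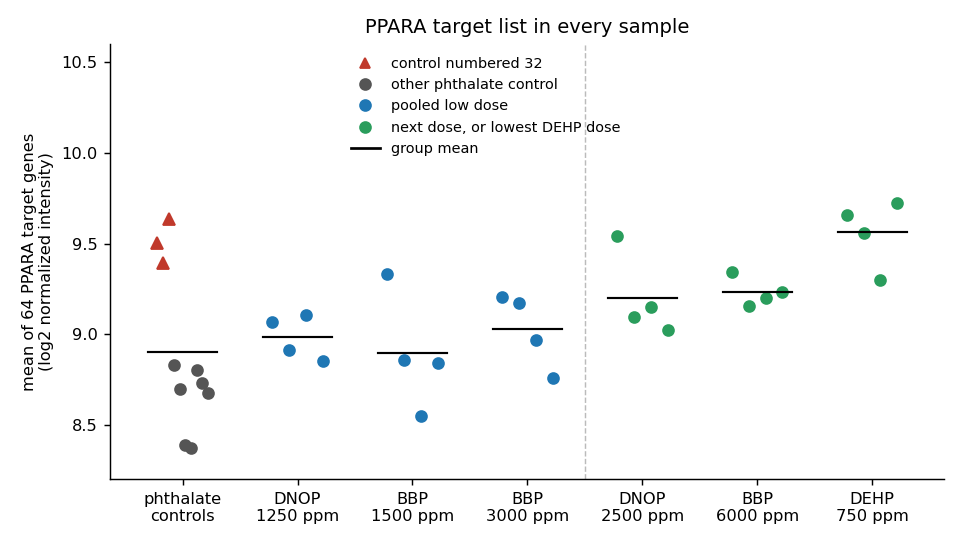
The vertical axis is the mean log2 normalized intensity of the 64 tested PPARA targets, 1 point per sample, with a line at each group mean. The 12 exposed samples span 8.55 to 9.33, below the controls numbered 32 (9.40 to 9.63) and overlapping the other controls (8.37 to 8.83). The group means are 9.23 at BBP 6000 ppm and 9.56 at DEHP 750 ppm.

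By role, the 4 tested omega-hydroxylation genes had the largest median, 0.30 with all controls and 1.15 without those numbered 32, and 1 of the 4 was called in the latter. Cyp4a14 stood 0.43 higher (95% interval -0.75 to 1.60) and then 1.79 higher (0.73 to 2.85, limma adjusted p = 0.371). Its controls ran from 4.48 to 12.16 and its exposed samples from 6.81 to 11.84, so the groups overlapped widely. Cyp4a31, another omega-hydroxylase, had an estimate of 0.03 with all controls (95% interval -0.94 to 0.99), with plain means of 7.75 in the exposed samples and 7.78 in the controls. Without those numbered 32 it stood 1.06 higher (limma adjusted p = 0.886). The 6 tested acyl-CoA thioesterases had medians of 0.05 and 0.32, with only Acot1 called.

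The 17 tested genes of peroxisomal oxidation and assembly had medians of 0.07 and 0.24, and Acaa1b and Ech1 were the 2 called. Ehhadh, the peroxisomal bifunctional enzyme, was 0.53 and then 1.11 higher (limma adjusted p = 0.413 without those controls). The 20 genes of mitochondrial oxidation and ketogenesis had medians of 0.06 and 0.19 and 0 calls. Acadvl, a mitochondrial acyl-CoA dehydrogenase, was 0.11 and 0.19 higher.

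Genes of the fasting type and of lipid handling had the lowest medians of the 5 roles. Their 17 tested members had a median of -0.07 with all controls, 6 of 17 above 0, and of 0.18 without those numbered 32, 14 of 17 above 0. Pdk4, a kinase that spares glucose in fasting, was -0.18 and then 0.42, and Fgf21, a fasting hormone of the liver, was -0.03 and then 0.62. Angptl4, an inhibitor of lipoprotein lipase, was -0.50 and then -0.01. The intervals of all 3 included 0 with either set of controls, and Plin2, a lipid droplet protein, was -0.18 and 0.02. Retsat was the 1 gene called of this group.

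**Figure D4:**
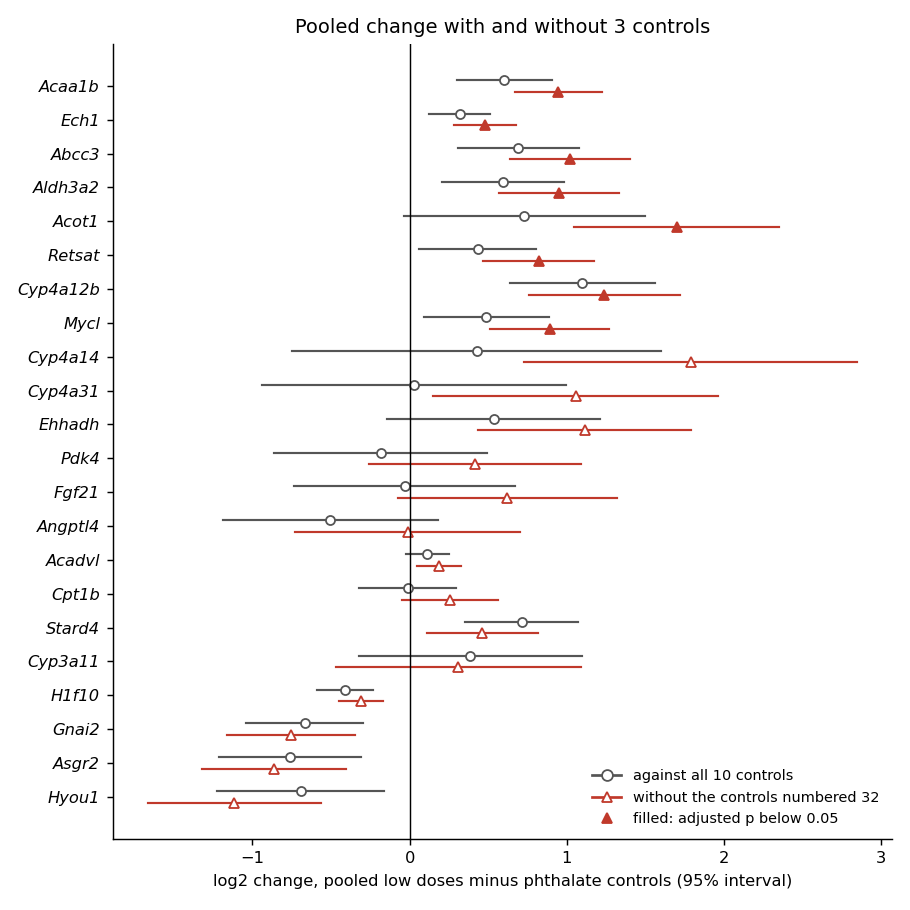
Points give the log2 change of the pool for 22 genes and lines its 95% interval, in grey against all 10 controls and in red without those numbered 32. Filled symbols passed an adjusted p of 0.05, which only the 8 upper genes did, and only in red.

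The other gene lists, cell type markers aside, had pooled medians between -0.11 and 0.17 with all controls, and between -0.27 and 0.14 without those numbered 32. Cholesterol synthesis had a median of 0.17 with all controls, 18 of 20 genes above 0, and of -0.09 without those numbered 32, 6 of 20 above 0, so its sign turned. Its mean level was 7.28 to 8.01 in the controls numbered 32, 8.59 to 9.34 in the others and 7.28 to 8.99 in the exposed samples. Acute phase genes had medians of -0.06 and -0.27, with means of 9.41 to 11.50 in the 7 other controls alone. The list of CAR and PXR targets, drug-sensing receptors, had medians of 0.09 and 0.07, and Abcc3 was its 1 called gene.

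Among the panel of that list, Cyp3a11 was 0.39 higher (95% interval -0.32 to 1.10), and Cyp2b10, the classic CAR target, was not detected on any of the 12 exposed arrays. The 26 tested cell cycle genes had medians of 0.05 and 0.06, and Ccnd1, a G1 cyclin, was 0.17 higher (-0.31 to 0.65). Cyp7a1, the rate-limiting enzyme of bile acid synthesis, was 0.39 higher (-0.52 to 1.31). Of the clock genes, Arntl was 0.23 higher, Per2 0.24 higher and Dbp 0.26 lower, with 95% intervals that included 0. Serpina12, an adipokine-like serpin, was 0.10 lower.

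Hyou1, a chaperone of the endoplasmic reticulum, had the lowest value among named genes without the controls numbered 32, -1.11 (SE 0.27, limma adjusted p = 0.124). It read 6.85, 6.49, 5.50 and 6.02 with DNOP, 5.66, 7.35, 6.41 and 6.94 with BBP 1500 ppm, and 5.62, 6.49, 5.51 and 5.72 with BBP 3000 ppm. The other controls ran from 6.85 to 8.13 and those numbered 32 read 5.68, 5.81 and 6.12. Exposed samples thus reached from the level of the controls numbered 32 up into the other controls. Fkbp11, a prolyl isomerase of the secretory pathway, was 0.69 lower (limma adjusted p = 0.236).

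Markers of other cell types gave 0 calls. Kupffer cell and macrophage markers had a median of 0.14 with all controls and 0.01 without those numbered 32. Their mean level was 6.19 to 6.89 in the controls numbered 32, 6.60 to 7.85 in the other controls and 6.61 to 7.88 in the exposed samples. Endothelial, stellate and cholangiocyte markers had medians between -0.01 and 0.09. Red cell markers had medians of 0.04 and -0.15. Of the muscle markers only Mb, myoglobin, passed the filter on dim genes, at -0.30 and -0.42. It read 7.33 in 1 of the 7 other controls, against a median of 4.38 in them and 4.29 to 4.59 in the exposed samples. The part of these levels in the results above was not tested.

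The 3 dose groups were not told apart by the test of a difference among them. The limma F test called 0 of 11324 genes (0%), and 349 genes (3.08%) had an unadjusted p under 0.05. The smallest p belonged to Dmac2, an assembly factor of mitochondrial complex I, at -0.23, 0.15 and 0.48 against the controls in DNOP 1250 ppm, BBP 1500 ppm and BBP 3000 ppm (F test adjusted p = 0.537). Cyp17a1, a steroid hydroxylase, followed at 0.34, -0.59 and 1.08 (F test adjusted p = 0.678). A p that misses the threshold does not show that the groups were alike.

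Between both BBP doses 0 genes passed limma (0%), and 383 (3.38%) had an unadjusted p under 0.05. The intervals show what could have been missed. At the median SE of 0.173 a first call needed a 1.83-fold difference. The value at 3000 ppm minus 1500 ppm was 0.09 for Acaa1b (95% interval -0.39 to 0.57), -0.04 for Ech1 (-0.35 to 0.27) and 0.41 for Acot1 (-0.81 to 1.63). It was 0.71 for Cyp4a12b (-0.01 to 1.44), 0.95 for Ehhadh (-0.12 to 2.03) and 1.14 for Cyp4a14 (-0.72 to 3.01). A 2-fold difference between the BBP doses lay outside the interval of Acaa1b and Ech1 and inside those of the last 4 genes.

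DNOP was given at another dose than BBP, and its values are set beside those of BBP without a comparison of the compounds. Without the controls numbered 32, DNOP at 1250 ppm gave 0.85 for Acaa1b, 2.17 for Acot1, 1.43 for Cyp4a12b and 1.19 for Aldh3a2. BBP at 1500 ppm gave 0.95, 1.26, 0.79 and 0.85 for these genes, and BBP at 3000 ppm gave 1.03, 1.67, 1.50 and 0.81. Taken alone with 7 controls, the 3 groups had 3 genes higher (0.0265%), 1 gene higher (0.00883%), and 5 higher (0.0442%) with 1 lower (0.00883%, 0.053% in all). At an unadjusted p under 0.05 they had 346 (3.06%), 560 (4.95%) and 664 genes (5.86%). Acaa1b was called in each of them. With only these samples in the fit, limma called 0 genes in each group, with or without the REP number as a block. For BBP 3000 ppm 546 genes had an unadjusted p under 0.05 without that block and 606 with it. The gene lower at BBP 3000 ppm was Calr, a chaperone of the endoplasmic reticulum, at -1.60. The median of the PPARA targets was 0.27, 0.19 and 0.25 in the 3 groups without those controls, and 0.07, 0.04 and 0.10 with them. The acute phase list was -0.53 at BBP 1500 ppm and -0.09 in both others without those controls.

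**Figure D5:**
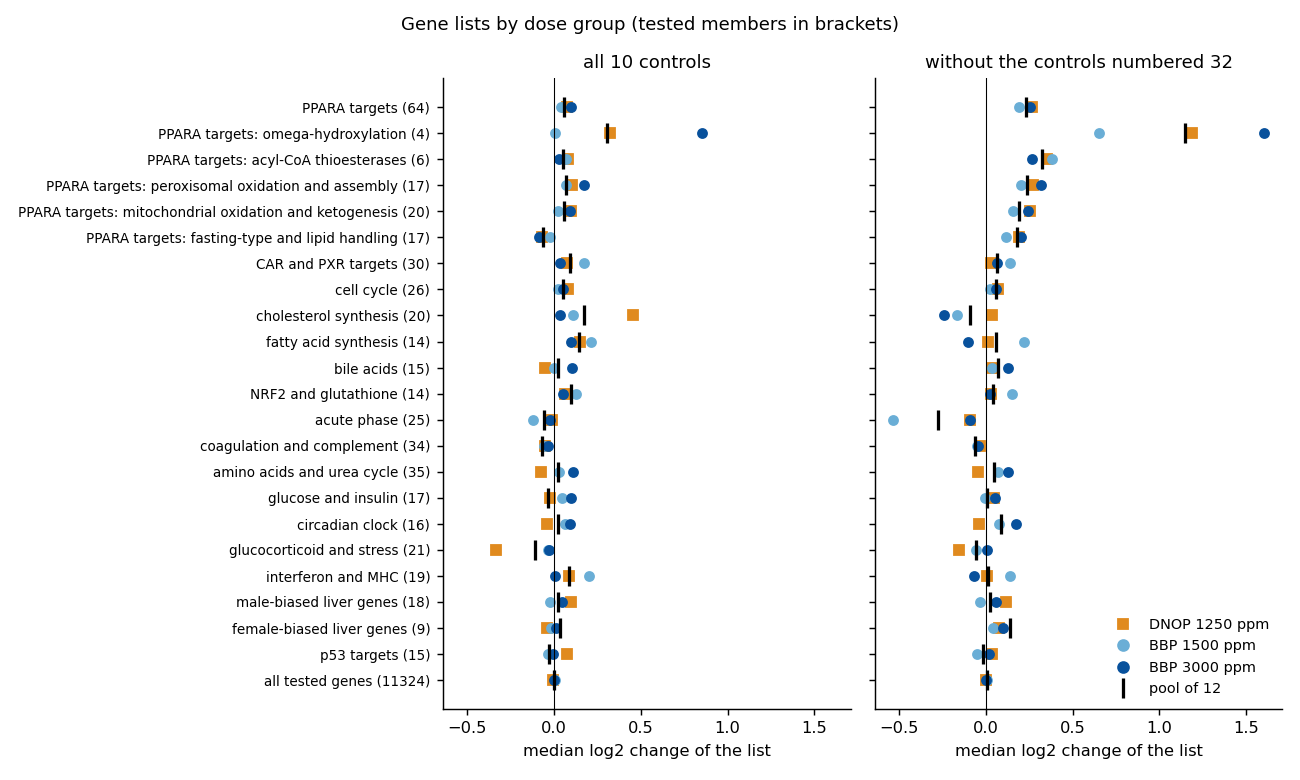
For each gene list the horizontal axis gives the median log2 change of its tested members, for DNOP 1250 ppm, BBP 1500 ppm, BBP 3000 ppm and the pool (black bar), with all controls at left and without those numbered 32 at right. The median of the 4 omega-hydroxylation genes moves from 0.30 to 1.15 in the pool and that of cholesterol synthesis from 0.17 to -0.09.

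The next doses give the scale of what lay above the pool. BBP at 6000 ppm against both low BBP groups had 0 calls (419 genes, 3.7%, at an unadjusted p under 0.05), and Cyp4a14 was 3.50 higher (SE 0.81, limma adjusted p = 0.615). With the controls numbered 32 left out of the fit, which changes only the estimated spread here, Cyp4a14 was called at the same 3.50 (SE 0.66, limma adjusted p = 0.0178). DNOP at 2500 ppm against 1250 ppm had 0 calls as well (418 genes, 3.69%, at that p), with Cyp4a14 2.23 higher (95% interval 0.37 to 4.10). Abcc3 was 0.62 higher in that step (0.01 to 1.23) and 0.49 higher in the BBP step (-0.04 to 1.02).

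DEHP at its lowest dose, 750 ppm, differed from the pool, in a contrast that uses the same 12 samples and no controls. There 30 genes (0.265%) were higher with DEHP and 12 (0.106%) lower by limma, and 902 genes (7.97%) had an unadjusted p under 0.05. Of the higher genes, 10 were among the 64 PPARA targets. Cyp4a14 was 4.32 higher with DEHP than in the pool (SE 0.76, limma adjusted p = 0.00341), Cyp4a31 2.88 and Ehhadh 2.05. Of the 8 genes above, Acot1 was 2.33 higher with DEHP, Aldh3a2 1.30, Cyp4a12b 1.26, Retsat 1.26 and Abcc3 1.19, and these 5 passed the test. Acaa1b was 0.36 higher (95% interval -0.03 to 0.75), Ech1 0.46 (limma adjusted p = 0.0965) and Mycl 0.42, and these did not with all controls in the fit. With the controls numbered 32 left out of the fit, which changes the estimated spread, 43 genes (0.38%) were higher and 17 (0.15%) lower. Ech1 was then called at the same 0.46 (limma adjusted p = 0.0421), while Acaa1b (adjusted p = 0.485) and Mycl (adjusted p = 0.62) were not. Anxa11, an annexin, was lowest, at -0.88 (limma adjusted p = 0.00341). The count of 42 genes was 25 without replicate 1 of DNOP and 26 without replicate 2 of BBP 1500 ppm, and it was 1 when arrays were centred on their medians in place of quantile normalization.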

How the data were processed

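RNA of 77 liver samples was read on 1-colour Illumina bead arrays of 18138 genes, 1 array per sample. The deposited table holds non-normalized signal intensity and a detection p-value per gene, per the file headers, and a second deposited matrix of processed intensity values, whose making is not given in the sources used here, served as an alternative. Background per array was estimated from the detection p-values, followed by normexp, an offset of 16, log2 and quantile normalization. Genes with detection p under 0.05 on at least 3 arrays were tested (11324). limma 3.58.1 in R 4.3.3 fitted 18 group means to all arrays with the label number as a random block (correlation 0.099), and p-values were adjusted by Benjamini-Hochberg. The pool is the mean of 3 group means. Intervals are 95%. Of the array IDs, 14307 are current RefSeq symbols, 2703 matched a synonym and 1128 kept the name in the file. The fit was run on simulated data with the same correlation within a label number for every gene. It therefore cannot show how the fit behaves for genes with a stronger one. The number of arrays limits the precision.

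The members of the pool, the gene lists and the tests were chosen with earlier results of these data known. Genes named are a panel of 26 (2 were not matched on the array and some are not reported here), called genes or otherwise the smallest p in each direction, the smallest p of the F test, called list members, and the leading calls against next doses. Calr was named after its value was seen. Alternatives covered the control set, each sample left out, each dose group left out, the block, background, normalization, filter, array weights and variance trend.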

Additional observations from a re-analysis of the deposited data

Results flagged for a closer look

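Of 164 sets of values tested, 8 had 1 sample far from the others of its group, and chance alone flags about 1 set in 20. Among the phthalate controls, replicate 4 read 6.35 for Cyp2c55, a drug-metabolizing cytochrome, where the other 9 ran from 4.46 to 5.06. Control replicate 2, numbered 32, read 6.84 for Styx against 7.60 to 8.41 in the others, and control replicate 1, numbered 32, read 8.96 for Asgr2 against 10.09 to 11.05. In the DNOP group, replicate 4 read 5.03 for Acot2, and its other 3 samples ran from 4.45 to 4.55. In the BBP 1500 ppm group, replicate 3 read 9.10 for Ccnd1 against 7.41 to 7.62, and replicate 4 read 7.59 for Gnai2 against 8.44 to 8.55. In the BBP 3000 ppm group, replicate 1 read 5.32 for Acot3, an acyl-CoA thioesterase, against 4.40 to 4.52, and 8.32 for Stard4 against 9.57 to 9.83. None of these 8 values belongs to a gene called in the pool.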

How the results depend on the processing

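With all controls the pooled count of 0 genes became 8 without the controls numbered 32 and 1135 (465 higher, 670 lower, 10% of genes) against the 4 phenobarbital controls, where arm and controls cannot be told apart. It was 3 with no random block, and 1 in each of 5 settings: BBP 1500 ppm left out of the pool, BBP 3000 ppm left out, 1 mean per label number, neqc background and array weights. Leaving out 1 sample gave 0 to 4. The pooled count of 8 without those controls became 1233 against the phenobarbital controls, 5 without DNOP in the pool, 4 without BBP 3000 ppm, 2 with only these samples fitted, 3 with the 12 as 1 group mean, 1 with a mean per label number, 2 with the REP number as a replicate block and 0 with median centring. Leaving out 1 sample gave 5 to 10.

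For the doses apart, the 0 calls became 3, 1 and 6 (DNOP 1250 ppm, BBP 1500 ppm, BBP 3000 ppm) without the controls numbered 32, and 485, 406 and 598 against the phenobarbital controls. Array weights gave 1 for BBP 1500 ppm, 3 for the F test, 4 between the BBP doses, 17 at BBP 6000 ppm, 4 at DNOP 2500 ppm and 100 for DEHP. A mean per label number gave 1 at BBP 6000 ppm, 2 at DNOP 2500 ppm and 89 for DEHP. BBP 6000 ppm had 1 call without the controls numbered 32. The DEHP count of 42 was 1 with median centring, 20 with no filter and 25 to 50 with 1 sample left out. With 1 sample left out, the count ran from 0 to 2 for DNOP 1250 ppm, and from 0 to 1 for BBP 3000 ppm and between the BBP doses.

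The REP numbers of the labels recur across groups. Same-numbered samples deviated from their group means with correlations of -0.27 to 0.55, 14 of 24 above 0.1. Since 10 of 24 were not, the numbers were not taken as pairs for the pool. All 4 pairs of BBP 3000 ppm with the controls were above 0.1 (0.18 to 0.55), and 8 of 12 exposed samples correlated best with controls of their own number, a hint from the data and not from the design. A replicate block by that number gave 0 calls for the pool with all controls, as for each dose, the F test and the BBP doses. Without the controls numbered 32, the only controls of REP number 1, it gave 0 for each dose. The alternatives to the fit with all controls gave 1757 values for 40 named genes. Of these, 0 were calls with the sign reversed, and 67 had another sign without a call. The settings applied on top of leaving out the controls numbered 32 were not part of that check. The settings applied on top of leaving out the controls numbered 32, and leaving out the controls of each other number, were chosen after seeing the data. The causes of these changes were not tested. Precision is limited by the number of arrays, and genes near background such as H1f10 or Acot2 have compressed differences.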
